A study of Mus musculus with 2 samples.

Results

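The hyaluronan and versican matrix was described here by 8 genes, chosen by symbol from the 22740 genes of the deposited table: the synthases Has1, Has2 and Has3, the hyaluronidases Hyal1 and Hyal2, the receptor Cd44, the proteoglycan Vcan and the hyaluronan-binding protein gene Tnfaip6. All 8 symbols were found. RNA sequencing was done on the whole uterus of 2 C57BL/6 mice, labelled WT, at pregnancy day 4, with 1 library per animal, called uterus 1 and uterus 2. There is 1 group, with no treatment, genotype or time contrast, and the age of the animals is not given in the sources used here. Whole uterus mixes stroma, epithelium, muscle, vessels and leukocytes, so more cells of a type and more RNA per cell cannot be told apart.

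Hyaluronan is a long unbranched sugar polymer that synthases in the plasma membrane extrude directly into the matrix, where it binds water and opens space between cells. Hyaluronidases cut it, CD44 anchors and takes it up at the cell surface, and versican, a large chondroitin sulphate proteoglycan, binds it through a link module. In the mouse uterus the stroma swells and is remodelled around the time of implantation, and hyaluronan and versican are known components of that matrix.

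The 3 synthase genes are paralogues, so their coding sequences are shown first, because a read can be given to 1 synthase only where the sequences differ. The 60 coding bases around the longest run shared by Has2 and Has3 are printed 5′ to 3′ in mouse build NCBIM37, with capitals at the 24 positions where the 3 genes are not all alike. The Has1 stretch lies on 1 exon at chr17:17985218-17985277 (minus strand), whereas the Has2 stretch (minus strand, chromosome 15, 56500126 to 56501485) and the Has3 stretch (plus strand, chromosome 8, 109400852 to 109401822) each cross an exon junction.
Has1: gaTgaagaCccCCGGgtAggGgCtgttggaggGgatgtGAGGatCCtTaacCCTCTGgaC
Has2: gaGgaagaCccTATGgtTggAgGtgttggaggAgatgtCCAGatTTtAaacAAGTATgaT
Has3: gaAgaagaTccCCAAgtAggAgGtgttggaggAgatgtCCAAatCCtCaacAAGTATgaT
Has2 and Has3 were identical at 49 of these 60 bases, Has1 and Has3 at 41, and Has1 and Has2 at 39.

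Over the aligned coding sequence, Has2 and Has3 shared 67.8% of bases, Has1 and Has3 65.6%, and Has1 and Has2 59.9%. The longest run without a difference was 23 bases between Has2 and Has3 (ggaggtgttggaggagatgtcca) and 17 bases in both pairs with Has1. The hyaluronidase genes were further apart. Hyal1 and Hyal2 shared 57.6% of aligned coding bases, with a longest common run of 14 bases. A read longer than these runs differs from the other coding sequence at 1 base or more. The read length is not given in the sources used here.

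Levels are given as the authors' RPKM, reads scaled to the length of the gene and to the size of the library, which can therefore be set side by side between genes. All 8 genes reached 1 RPKM in both uteri, the threshold used for detection, which 58.4% of all genes in the table passed. The median of their means was 11.996 RPKM, beside 3.23 RPKM for all 22740 genes and 10.99 RPKM for the 13647 genes that averaged 1 RPKM or more. Vcan was the highest and Has1 the lowest, and the plot of RPKM by gene gives every value.

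**Figure D1:**
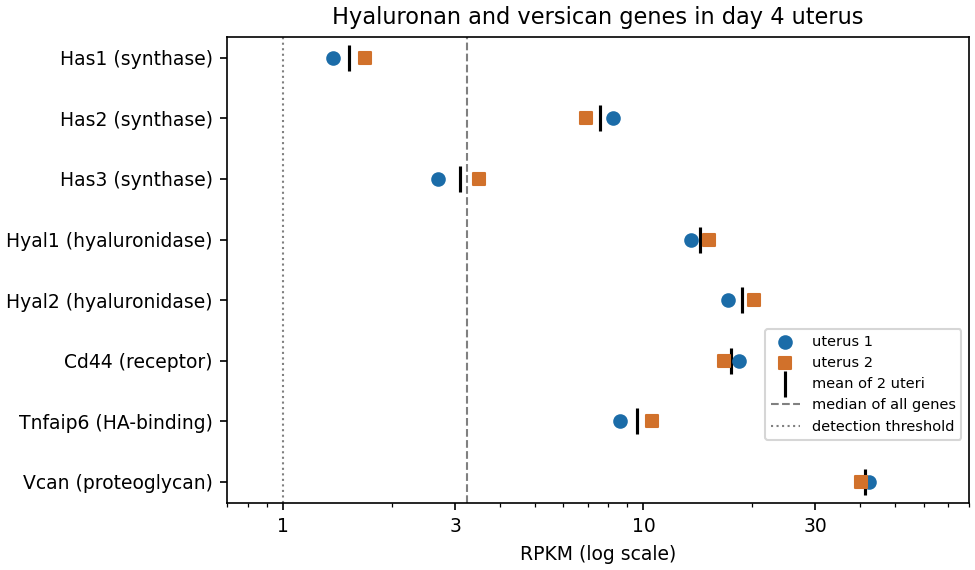
RPKM (log axis) of each gene in uterus 1 (circles) and uterus 2 (squares), with the mean of both as a black tick. All points lie to the right of the dotted detection threshold at 1 RPKM, and the 3 synthases lie below the other 5 genes, Has1 and Has3 near or below the dashed median of all genes (3.23 RPKM).

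Has2 was the main hyaluronan synthase transcript in both uteri. Has2 (NM_008216, chromosome 15, 56497182 to 56526101, minus strand) encodes the synthase known to make very long hyaluronan chains and to be required for the embryonic heart. Its level was 8.23 RPKM in uterus 1 against 6.92 RPKM in uterus 2, a mean of 7.58 ± 0.930 (SD, n = 2), on 134 and 125 reads. Has3 (NM_008217, chromosome 8, 109394142 to 109406802, plus strand), which makes shorter chains in vitro, lay at 2.69 and 3.50 RPKM, 3.09 ± 0.570 (SD, n = 2), on 61 and 88 reads. Has1 (NM_008215, chromosome 17, 17980290 to 17992152, minus strand), a synthase with lower activity in vitro, lay at 1.37 and 1.68 RPKM, 1.53 ± 0.222 (SD, n = 2), on 11 and 15 reads. Uterus 1 was the higher of the animals for Has2 and the lower for Has3 and Has1, and the ranges of the 3 genes did not overlap.

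Has2 made up 67.0% of the summed synthase RPKM in uterus 1 and 57.2% in uterus 2. Has3 made up 21.9% and 28.9%, and Has1 11.2% and 13.9%. The sum itself was nearly the same in both animals, at 12.3 and 12.1 RPKM. Within an animal, Has2 was 6.00 and 4.11 times Has1, and 3.06 and 1.98 times Has3.

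A non-coding gene on the opposite strand, Has2as (NR_002874, chromosome 15, 56521499 to 56526015, plus strand), lies wholly inside the Has2 interval of the table, and it is the only row that overlaps any of the 8 genes. It was listed at 2.69 and 3.39 RPKM. In the GENCODE M1 annotation the exons of this gene pair share 182 bases, 4.30% of the Has2 exon bases. The use of strand in counting is not given in the sources used here, and reads from those bases cannot be assigned to a strand without it. Has2as held 5 and 7 reads where Has2 held 134 and 125. Those Has2as reads go with a length of 485 bases, below its 1628 annotated exon bases, so they may be too few.

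Both hyaluronidase genes were expressed at higher RPKM than any synthase. Hyal2 (NM_010489, chromosome 9, 107471494 to 107475109, plus strand) encodes a membrane-anchored enzyme that cuts long hyaluronan into intermediate fragments. Its level was 17.2 RPKM in uterus 1 against 20.3 RPKM in uterus 2, 18.8 ± 2.21 (SD, n = 2), on 122 and 160 reads. Hyal1 (NM_008317, chromosome 9, 107479283 to 107482464, plus strand) encodes the lysosomal enzyme that degrades such fragments further. It lay at 13.6 and 15.2 RPKM, 14.4 ± 1.19 (SD, n = 2), on 113 and 141 reads. Hyal2 was above Hyal1 in both animals, by 1.27 and 1.33 times, and both genes were higher in uterus 2.

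Summed, the hyaluronidase pair stood at 30.8 and 35.6 RPKM, 2.50 and 2.94 times the synthase sum of the same animal. RNA levels of enzymes with opposite actions do not measure the amount of hyaluronan. Hyal3, the next gene of the same chromosome 9 cluster, lay at 1.43 and 1.16 RPKM on 10 and 9 reads, so that Hyal2 was 12.1 and 17.6 times higher in the same animals.

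Nat6, a gene that starts 36 bases after the deposited end of Hyal1 on the same strand, lay at 13.7 and 15.5 RPKM. Hyal1 was 0.989 and 0.981 times Nat6. In GENCODE M1 some transcripts of the pair overlap, sharing 1947 exon bases or 51.2% of the Hyal1 exon bases. How reads in such bases were counted is not given in the sources used here, and the part of this overlap in the Hyal1 value was not tested.

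Cd44 (NM_001177786, chromosome 2, 102651300 to 102741822, minus strand) encodes the main cell-surface receptor for hyaluronan. Its level was 18.4 RPKM in uterus 1 against 16.7 RPKM in uterus 2, 17.5 ± 1.17 (SD, n = 2), on 398 and 402 reads. Its values overlapped those of Hyal2, so those 2 genes were not ordered beyond their spread. Of the other hyaluronan receptors, Stab1 (scavenger receptor stabilin-1) was above Cd44 in the deposited values, at 24.0 and 22.1 RPKM, 1.31 and 1.32 times Cd44. That order depends on the length taken for Cd44. With 398 and 402 reads Cd44 would lie at 18.5 and 16.8 RPKM on its longest transcript, below Stab1. On transcript Cd44-002 it would lie at 36.4 and 33.2 RPKM, above Stab1. Cd44 in turn was 2.27 and 2.29 times Lyve1, a marker of lymphatic endothelium and some macrophages, which lay at 8.10 and 7.30 RPKM. CD44 is also carried by leukocytes, and the leukocyte genes Ptprc, Cd68, Csf1r and Itgam were all present, with a summed level of 60.3 RPKM in uterus 1 and 67.9 RPKM in uterus 2. Their part in the Cd44 level was not tested.

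Vcan (NM_019389, chromosome 13, 89794915 to 89882117, minus strand), which encodes versican, was the most abundant of the 8. The libraries gave 42.2 RPKM in uterus 1 against 40.2 RPKM in uterus 2, 41.2 ± 1.47 (SD, n = 2), on 2379 and 2511 reads. It ranked 1518 of 22740 genes by mean, and that mean was 2.20 times that of Hyal2, the next gene in order. Vcan also differed least between the animals, its SD being 3.56% of its mean against 18.4% for Has3, which differed most. The other lecticans were far lower: aggrecan (Acan), brevican (Bcan) and neurocan (Ncan) each lay under 0.25 RPKM in both uteri, on at most 7 reads.

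Tnfaip6 (NM_009398, chromosome 2, 51893633 to 51912201, plus strand) encodes TSG-6, a secreted link-module protein that transfers heavy chains of inter-alpha-inhibitor onto hyaluronan. The libraries gave 8.63 RPKM in uterus 1 against 10.6 RPKM in uterus 2, 9.60 ± 1.37 (SD, n = 2), on 53 and 72 reads. Both values were above those of Has2 in the deposited table. Of its partners, Itih5 was the only heavy chain gene above 1 RPKM, at 28.0 and 32.9 RPKM, 3.24 and 3.11 times Tnfaip6. Itih2, Itih3 and Itih4 were under 0.34 RPKM, Itih1 was listed at 0 in both uteri, and Ambp, which encodes the light chain bikunin, was listed at 0.212 and 0 RPKM. Itih5 was called higher in uterus 2 by an exact binomial test on reads, which compares these libraries and called 4.97% of all tested genes (adjusted p 0.0133). Ptx3, the pentraxin that joins heavy chains in the ovarian cumulus matrix, lay at 1.90 and 2.20 RPKM on 14 and 18 reads.

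Has2, Tnfaip6 and Ptx3 are also strongly expressed by ovarian cumulus cells, so ovarian genes were read beside them. Of 7 follicle and oocyte genes, Fshr, Cyp19a1 and Zp3 were listed at 0 in both uteri. The list summed to 3.37 RPKM in uterus 1 and 4.21 RPKM in uterus 2, most of it Inha at 1.78 and 2.73 RPKM.

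In order of mean level the genes ran Vcan, Hyal2, Cd44, Hyal1, Tnfaip6, Has2, Has3 and Has1. The values of neighbours in this order did not overlap between the animals, except for Hyal2 and Cd44. Part of this order rests on the gene lengths behind the RPKM values. On the longest annotated transcripts Tnfaip6 would lie at 8.08 and 9.89 RPKM, which overlaps Has2 at 8.25 and 6.93 RPKM and Hyal1 at 9.78 and 10.99 RPKM. With 2 animals these ranges are a description. Their percentiles among all genes ran from 43.0 for Has1, through 49.5 for Has3 and 62.4 for Has2, to 81.7 for Hyal2 and 93.3 for Vcan.

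The measured levels of the animals were less than 2-fold apart for all 8 genes. On a log2 scale with 0.1 RPKM added, which understates the change of low genes, the ratio of uterus 2 over uterus 1 ran from -0.25 for Has2 to 0.37 for Has3. It was 0.28 for Has1, 0.17 for Hyal1, 0.24 for Hyal2, -0.14 for Cd44, -0.07 for Vcan and 0.29 for Tnfaip6. Thus 5 genes were higher in uterus 2 and 3 lower, and their median log2 ratio was 0.20, beside 0.0007 for all genes that averaged 1 RPKM or more. Of the 8, 0 were at least 2-fold apart, where 2.60% of the 13647 such genes were, a share at which 0 of 8 says nothing about the set. The median absolute log2 ratio of the 8 was 0.24, above the 0.17 of all genes that averaged 1 RPKM or more.

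Reads recovered from the RPKM values allowed these ratios to be set against counting error. An exact binomial test, two-sided, with Benjamini-Hochberg adjustment over 15163 genes compared these libraries and not conditions. It called 0 of the 8, where 4.97% of all tested genes were called, a share at which 0 of 8 says nothing about the set. Of the 8, 0 had an unadjusted exact p under 0.05. Vcan, with the most reads, had the smallest adjusted p in that exact test, 0.390, and its log2 ratio had a 95% counting interval of -0.15 to 0.01. Has2 had an interval of -0.61 to 0.11, and Has3 of -0.11 to 0.87. For Has1 the interval ran from -0.92 to 1.56, so that a 2-fold difference toward uterus 2 lay within counting error at this depth. The plot of ratios with their counting intervals shows how depth sets this precision.

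**Figure D2:**
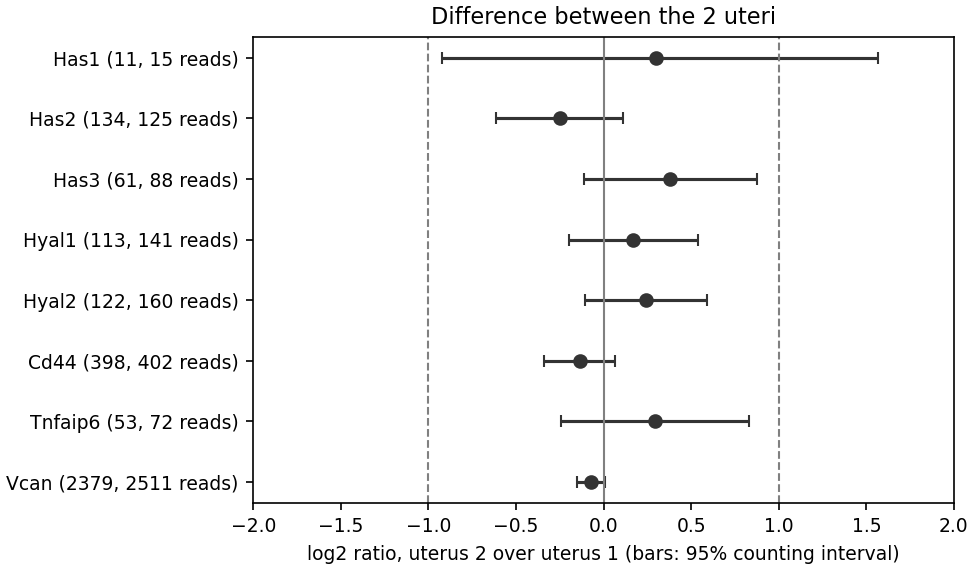
Log2 ratio of recovered reads, uterus 2 over uterus 1, after scaling to the library totals (points), with exact 95% counting intervals (bars); dashed lines mark 2-fold. Every interval includes 0, and they narrow from Has1 with 11 and 15 reads to Vcan with 2379 and 2511.

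Vcan and Cd44 are spliced into isoforms that the gene-level values do not separate. Alternative exons of Vcan encode the regions that carry chondroitin sulphate chains, and variable exons of Cd44 lengthen its extracellular stem. The recovered reads give the gene length behind each RPKM value. For Has3 that length was 5912 bases, equal to its 1 annotated transcript, and for Has1 and Has2 it was within 7 bases of theirs. For Vcan it was 14689 bases, 2260 more than the longest of its 10 annotated transcripts and 222 more than all of its annotated exons joined. Scaled to its longest annotated transcript of 12429 bases, Vcan would stand at 48.7 RPKM instead of 41.2 RPKM, and scaled to the 8332 bases of transcript Vcan-004 at 72.6 RPKM. For Cd44 the length was 5652 bases, close to its longest of 14 annotated transcripts (5614 bases). Lengths were chosen for closeness to annotated ones, so this is no separate check. The Cd44 values fit a length of 2826 bases with 199 and 201 reads equally well, and that length is close to transcript Cd44-002 (2848 bases). The length and reads of Cd44 are therefore uncertain by that factor, while its deposited RPKM is not. For Hyal1 it was 2175 bases, shorter than its longest annotated transcript of 3014 bases. On their longest transcripts Hyal1 would stand at 10.4 RPKM, Tnfaip6 at 8.99 RPKM and Hyal2 at 18.3 RPKM, each lower than on the length behind the deposited value. Vcan is the highest of the 8 genes with all of them on their longest transcripts.

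**Figure D3:**
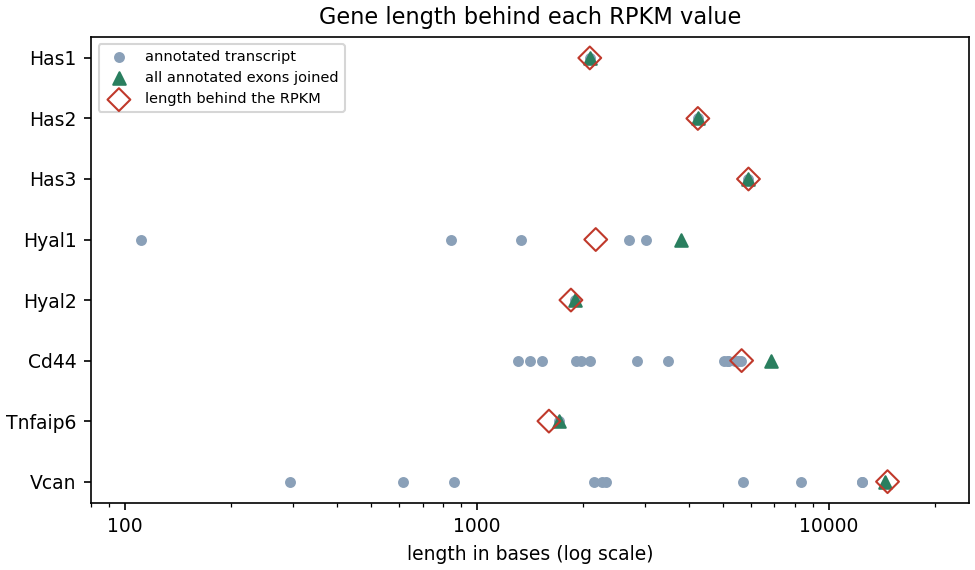
Length in bases (log axis) of each annotated GENCODE M1 transcript (dots), of all annotated exons joined (triangles) and of the gene length behind the RPKM value (diamonds). The diamonds sit on the 1 transcript of Has1, Has2 and Has3, and beyond every transcript of Vcan, at 14689 bases.

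The genes that supply the precursors of hyaluronan were all present. These enzymes make UDP-glucuronic acid and UDP-N-acetylglucosamine, the sugar donors of the synthases. All 7 were detected in both uteri, where 58.4% of all genes were, with a median of 15.996 RPKM. Ugp2, which makes UDP-glucose, was highest at 50.6 and 65.0 RPKM. Ugdh, which turns UDP-glucose into UDP-glucuronic acid, lay at 23.3 and 22.995 RPKM. The fructose-6-phosphate amidotransferase genes, whose enzymes open the hexosamine pathway, were unequal: Gfpt1 lay at 20.5 and 21.2 RPKM and Gfpt2 at 4.54 and 6.45 RPKM. Of the 7, the binomial test called 1 between these libraries, beside 4.97% of all tested genes: Ugp2 was higher in uterus 2 with an adjusted p of 0.000182 in that exact test.

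Beyond Hyal1 and Hyal2, the other genes of hyaluronan breakdown ranged from a listed 0 to a level above the deposited values of Vcan, in Hexa. On its longest annotated transcript Vcan would lie at 49.9 and 47.5 RPKM, values that overlap those of Hexa. The hyaluronidase genes Hyal4, Hyal6 and Spam1 (known from sperm) were listed at 0 in both uteri and Hyal5 had 1 read in all. The table lists Rpl26, a ribosomal protein gene that cells in general use, at 0 as well, so a listed 0 is not read as absence. Of the lysosomal exoglycosidase genes, which finish the breakdown, Hexa lay at 47.1 and 52.0 RPKM and Gusb at 32.1 and 35.1 RPKM. Tmem2 (now Cemip2), which encodes a cell-surface protein of hyaluronan breakdown, lay at 10.01 and 12.05 RPKM, and its relative 9930013L23Rik (now Cemip) at 1.61 and 2.44 RPKM.

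Link proteins, which lock lecticans onto hyaluronan, were low beside Vcan. Of the 4, Hapln3 lay at 2.73 and 3.44 RPKM and Hapln1 at 1.19 and 1.53 RPKM, whereas Hapln2 and Hapln4 lay under 0.15 RPKM on at most 2 reads. Vcan was 15.5 and 11.7 times Hapln3. Of the 22 chondroitin sulphate genes, which build the chains on versican, 18 were detected in both uteri, where 58.4% of all genes were. Their median was 11.7 RPKM, near the 10.99 RPKM of all genes that averaged 1 RPKM or more. The polymerase gene Chsy1 was highest at 35.0 and 40.1 RPKM, and its partner Chpf lay at 26.0 and 24.9 RPKM. The dermatan sulphate epimerase gene Dse lay at 18.4 and 18.5 RPKM. Chsy3, Chst3 and Chst13 stayed under 1 RPKM in both uteri.

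Within that list, Xylt1, which starts the chain by adding xylose to the core protein, differed most between the animals. It lay at 3.31 RPKM in uterus 1 on 39 reads and 0.918 RPKM in uterus 2 on 12 reads, a log2 ratio of -1.74. The exact binomial test gave Xylt1 an adjusted p of 0.00160, and it was 1 of 22 genes of that list called, a share near the 4.97% of all tested genes. Its paralogue Xylt2, at 14.5 and 15.1 RPKM, was higher in both animals and nearly equal between them.

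Of the 6 genes for proteases that cut versican, 5 were detected in both uteri, where 58.4% of all genes were. Among these 5, 1 gene, Adamts1, lay above Vcan in the deposited values. Adamts1, a versican-cutting protease known to respond to progesterone in the ovary, lay at 69.6 and 73.8 RPKM, 1.65 and 1.84 times Vcan in the same animals. That gap depends on the length taken for Vcan, which on transcript Vcan-004 would lie at 74.5 and 70.8 RPKM, values that overlap those of Adamts1. Adamts9 lay at 26.1 and 23.7 RPKM, Adamts15 at 20.5 and 23.7 RPKM, Adamts4 at 15.1 and 13.5 RPKM and Adamts5 at 9.37 and 9.05 RPKM. Adamts20 held 4 and 9 reads. The exact binomial test called 0 of these 6 between the libraries, beside 4.97% of all tested genes, a share at which 0 of 6 says nothing about these genes, and 1 of the 6 (Adamts15) had an unadjusted exact p under 0.05. Of the matrix proteins that bind versican, fibronectin (Fn1) lay at 235 and 204 RPKM, fibrillin-1 (Fbn1) at 113 and 110 RPKM, and the fibulins Fbln1 and Fbln2 between 23 and 31 RPKM. Of the 5 genes of that list with enough reads, Fn1 and Fbln2 were called, both lower in uterus 2 by the same exact test, with adjusted p-values of 3.3e-15 and 0.000921.

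Several small leucine-rich proteoglycan genes stood above Vcan in RPKM. Decorin (Dcn) lay at 456 and 578 RPKM, 10.8 and 14.4 times Vcan, lumican (Lum) at 235 and 247 RPKM and biglycan (Bgn) at 111 and 98.6 RPKM. Of the 11 genes of that list with enough reads, the exact binomial test called 1, beside 4.97% of all tested genes: Dcn was higher in uterus 2 with an adjusted p of 4.62e-25 in that exact test. Of the 13 genes in that list, 10 were detected in both uteri, where 58.4% of all genes were, with a median of 6.97 RPKM over all 13. Since Vcan has a gene length of 14689 bases, its 2379 and 2511 reads set beside 3647 and 5126 on Dcn give a narrower gap than the RPKM values do. The plot of gene groups shows each list with its median.

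**Figure D4:**
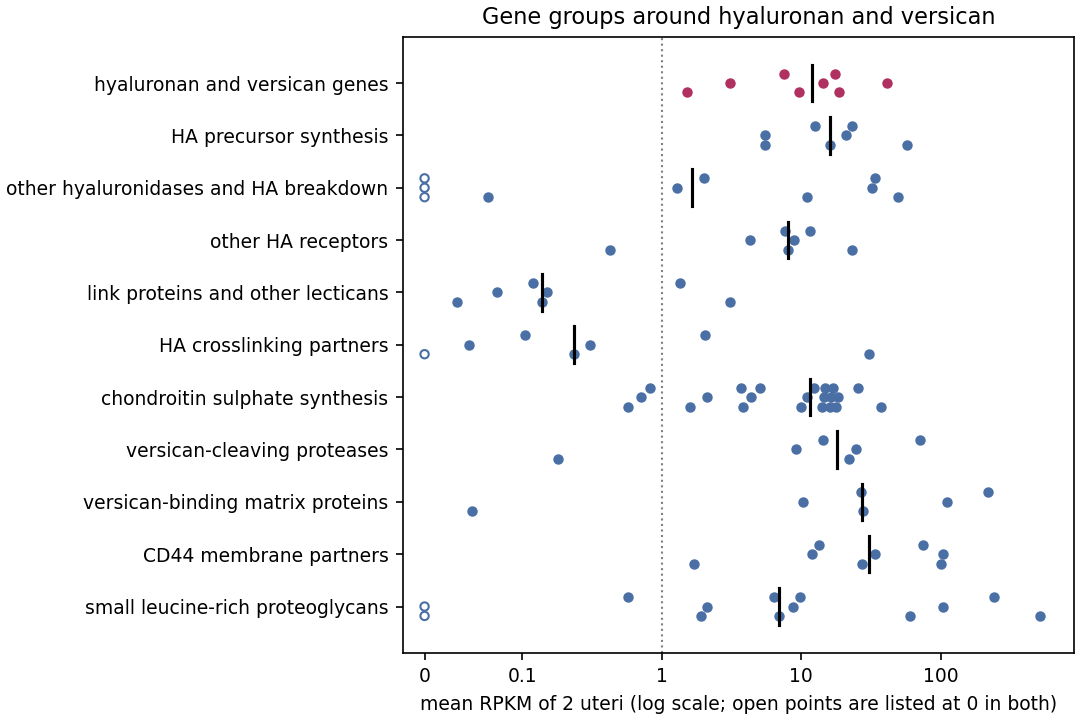
Mean RPKM over both uteri (log axis) of each gene in the 8-gene set and in the 10 lists around it; black bars are list medians, the dotted line is 1 RPKM, and open points are genes listed at 0 in both. The link proteins with the other lecticans, and the hyaluronan crosslinking partners, are the 2 lists with a median under 1 RPKM.

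The labelled tissue was checked against its markers. Every listed marker of uterine stroma, epithelium, smooth muscle, endothelium, leukocytes and mesothelium was detected in both uteri, with list medians between 4.95 RPKM (mesothelium) and 332 RPKM (smooth muscle). Between the libraries the exact binomial test called 2 of 7 stroma, 1 of 6 epithelium, 2 of 5 smooth muscle and 1 of 4 endothelium markers. It called 0 of 4 leukocyte and 0 of 4 mesothelium markers. Col1a1 was lower in uterus 2 (1184 and 851 RPKM) and Vim higher (447 and 522 RPKM). Whether the uteri differed in cell composition was not tested. Of the 5 decidual genes, Prl8a2 and Prl3c1 were listed at 0 in both, and the other 3 lay between 1.03 and 2.39 RPKM.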

How the data were processed

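The authors normalized expression to RPKM, per the labels. The submitters' processing notes name TopHat, edgeR and mm9, with no versions or roles. The labels give TRIzol extraction and TruSeq libraries from whole uterus. The counter, annotation and use of strand are not given in the sources used here. Both deposited tables hold equal RPKM values for all 22740 genes.

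Deposited starts were read as counted from 0; coordinates are counted from 1 on NCBIM37 (mm9). Sequences and transcripts come from NCBIM37 and GENCODE M1. RPKM ratios between the libraries matched ratios of whole reads for all 16104 genes above 0 in both (relative tolerance 1e-09). Large enough whole numbers can match any ratio this closely, so that count does not show that the true reads were found. Single-exon genes gave scaling totals of 3834174 and 4256101. A common factor was chosen so that the gene length came out whole (within 0.02 bases; 99.97% of genes), no longer than the deposited span and close to annotated lengths. Factors up to 200 were tried, so the share of genes with a whole length is no check of the reads either. Recovered reads summed to 3865101 and 4296811, above the scaling totals. The reason was not tested, and the reads of some genes may be too many. Every read count, interval and binomial p-value given here rests on this recovery. The lengths offered were those of transcripts with both ends within 10 bases of the deposited gene's, and of all exons joined, or every annotated length where no transcript matched. This choice replaced one that offered every annotated length, after that one had given Cd44 199 and 201 reads and a length of 2826 bases, so the Cd44 reads depend on it. Intervals are exact Clopper-Pearson and cover only counting error, as reads copied by PCR are not separate molecules. Recovery and test were also run on simulated data, the outcome of which is not reported here. Python 3.11.15 with SciPy 1.17.1, pandas 2.3.3 and Biopython 1.88 was used.

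The series has 1 group, so no groups could be tested against each other. The series' design text states that the mice were independent. Members and lists were chosen with earlier results of these data known. Genes were named from the 8 genes, 10 fixed lists, the fixed cell type marker lists, and genes overlapping or next to the 8; Rpl26 was chosen after its values were seen. 1 gene of the lists and the sequences upstream of the genes are not reported here; counts and medians of the lists include every member. With 2 libraries no gene was named as alike in pattern.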

Additional observations from a re-analysis of the deposited data

How the results depend on the processing

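The count of detected genes fell to 7 at 2 RPKM, where Has1 dropped out, and was 8 at 0.5 RPKM, on the TPM scale, in the annotated table and in either library alone. The count at least 2-fold apart was 0 under all 5 alternatives, and all 24 log2 ratios with another pseudocount or centring kept their direction, though these could hardly change it. With the smallest possible reads the exact binomial test called 0 of the 8 (adjusted p from 0.442 to 0.983, against 0.390 to 0.947) and 569 of 14888 genes. With every annotated length offered, the first form of the recovery, 1 of the 8 genes (Cd44) had other reads, and the test called 0 of the 8 (adjusted p from 0.397 to 0.951) and 737 of 15138 genes. Scaled to the longest annotated transcript, an alternative chosen after seeing the data, Vcan moved to 48.7 RPKM and Hyal1 to 10.4 RPKM. Taking only genes above 0 in both libraries gave higher list medians, as it drops low genes: 21.6 RPKM for other hyaluronidases and breakdown, 0.145 for link proteins and other lecticans, 1.18 for crosslinking partners and 8.71 for small leucine-rich proteoglycans. In single libraries the median was 0.127 to 0.131 for link proteins and other lecticans and 0.212 to 0.301 for crosslinking partners. Percentiles fell among protein-coding or expressed genes by construction, in 14 of 16 cases by more than the spread between libraries. A mean of 2 values always lies within 1 SD of each, so either library alone says nothing of stability there. No paired analysis was possible because the libraries form 1 group. Reads limit Has1, Has3 and Tnfaip6 most.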

Other observations

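The proteins that tie CD44 to the cell cortex were read as a further list of 8 genes, with a median of 30.5 RPKM. All 8 were detected in both uteri, where 58.4% of all genes were. Of the ezrin, radixin and moesin family, which link membrane receptors to actin, radixin (Rdx) lay at 96.9 and 110 RPKM, moesin (Msn) at 81.2 and 67.6 RPKM and ezrin (Ezr) at 32.5 and 35.0 RPKM. The exact binomial test called 3 of the 8 between these libraries, beside 4.97% of all tested genes. By that test Rdx was higher in uterus 2 (adjusted p 0.00302), and Msn (adjusted p 0.000706) and Mmp14 (adjusted p 0.0132) were lower. These 3 had the most reads of the list, and the test calls smaller ratios at greater depth. Mmp9 and Spp1 had larger log2 ratios, 0.62 and 0.33, and were not called, so the share called is no sign of a larger change in this list. The membrane protease gene Mmp14, whose product sheds CD44, lay at 109 and 93.1 RPKM, whereas Mmp9, which docks on CD44, lay at 1.33 and 2.10 RPKM on 16 and 28 reads. Osteopontin (Spp1), a further CD44 ligand, lay at 11.96 and 15.02 RPKM.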
